A study of Mus musculus with 143 samples.

Results

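The AMPA and kainate receptor subunits are the 9 genes that encode the channel-forming subunits of these glutamate receptors, Gria1 to Gria4 for AMPA receptors and Grik1 to Grik5 for kainate receptors. They were chosen by name, through the Ensembl identifiers of the count table, and make up 9 of the 41128 mouse genes in it. Their RNA was measured in the striatum of 143 mice, 1 polyA-selected library per mouse. The mice were wild type or zQ175, a knock-in model of Huntington's disease whose own Htt gene carries an expanded CAG repeat; the labels do not give the zygosity. They were untreated, or were given a small interfering RNA (siRNA): HTT-10150, which targets Htt, or its control NTC, which has no target. In the strategy 2[4]6 treatment was at 2 months of age and the tissue was taken at 6 months. In 6[4]10 treatment was at 6 months and in 2+6[8]10 at both 2 and 6 months, with the tissue taken at 10 months in both. The untreated mice of each strategy were collected at its age. Each of the 18 groups of genotype, treatment and strategy had 8 mice, 4 of each sex, with 1 exception: the wild-type HTT-10150 group of 2+6[8]10 had 7 (2 females and 5 males). Every library came from whole striatal tissue, so a lower level may reflect fewer cells of a type or less RNA per cell, and these cannot be told apart.

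AMPA receptors are tetramers of the GluA1 to GluA4 proteins and carry most of the fast excitatory current at the inputs that medium spiny neurons receive from cortex and thalamus. GluA2, from Gria2, makes the receptor nearly impermeable to calcium once its transcript has been edited. Kainate receptors are tetramers in which GluK1 to GluK3 (Grik1 to Grik3) can form channels on their own, while GluK4 and GluK5 (Grik4 and Grik5) bind glutamate with high affinity and need a partner from the first group. They act both before and after the synapse, and the Neto proteins set their speed and location.

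Levels between genes were compared per length, in TPM, a level per length scaled to the same total in each library, over the 24 untreated wild-type mice of the 3 strategies. Gria2 was the most abundant subunit, with a lowest, median and highest level of 181.05, 214.6 and 240.5 TPM. Gria1, which encodes the GluA1 subunit added to synapses during potentiation, followed at 163.4, 188.7 and 199.0 TPM, so the ranges of these leading subunits overlapped. Grik5 had 118.6, 145.2 and 163.4 TPM, the highest level among the kainate subunits, and touched the bottom of the Gria1 range. Gria3 (median 80.2 TPM) and Grik2 (median 62.9 TPM) came next, with ranges of 67.4 to 86.9 and 52.5 to 74.8 TPM that overlapped. Gria4 had a median of 38.0 TPM and Grik3 of 29.9 TPM; their ranges did not overlap, Gria4 starting at 35.50 and Grik3 ending at 35.49. Grik4 (median 6.50 TPM) and Grik1 (median 2.12 TPM) lay far below the other members. In the 24 untreated zQ175 mice Grik2, with a median of 38.6 TPM, ranked sixth, below Gria4 with 39.8 TPM. The order depended on the length used. With the length of all annotated exons joined, Gria1 led in wild type with a median of 237.7, followed by Grik5 with 151.9 and Gria2 with 133.3, and Grik2 stood at 29.4, below Grik3 at 42.0.

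**Figure D1:**
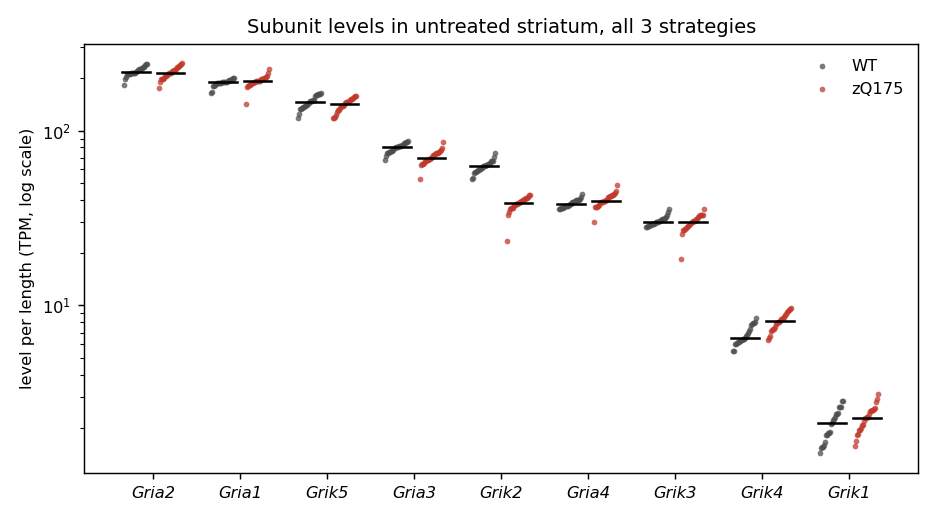
Per-length levels of the 9 subunits in untreated mice, in TPM on a log axis, with 1 point per mouse and a black line at the median of each genotype over the 3 strategies. Gria2 and Gria1 lie at the top, Grik1 and Grik4 at the bottom, and in wild type the levels of Gria2 run from 181.05 to 240.5 TPM.

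The 9 members all passed the filter on low counts in each strategy. Grik1 had the fewest reads, 18 to 86 counts per library with a median of 47, and Grik4 had 127 to 451; each of the other 7 had at least 943 counts in every library. Total counts per library ran from 12551675 to 29194369. Markers of medium spiny neurons, the main striatal cell type, were lower in untreated zQ175 for 11 of 11 genes in each strategy. Their summed level was 9064 to 11218 CPM (reads scaled to library size) in wild type and 5406 to 6076 in zQ175 in 2[4]6, 7711 to 10116 and 4788 to 5893 in 6[4]10, and 8409 to 9781 and 4735 to 5522 in 2+6[8]10. None of the 11 markers was at 0. Over all genes tested, 32.6%, 36.1% and 35.4% were called in untreated zQ175 in the 3 strategies. Those called lower were 17.2%, 17% and 18.3%, and those called higher 15.3%, 19.2% and 17.1%. The marker counts below stand beside these shares. Of 7 astrocyte markers 4, 5 and 5 were called lower in the 3 strategies and 0 higher, and their sums were apart in each: 3726 to 4020 CPM in wild type and 3082 to 3364 in zQ175 in 2[4]6, 3527 to 4295 and 2871 to 3163 in 6[4]10, and 3856 to 4386 and 3017 to 3455 in 2+6[8]10. Of 11 interneuron markers 5, 5 and 6 were lower, with sums apart at 10 months, 455.9 to 486.2 against 367.3 to 436.9 CPM and 463.3 to 514.8 against 383.9 to 461.1 CPM. Of 7 oligodendrocyte markers 3, 3 and 4 were lower, of 4 endothelial markers 3 in each strategy, and of 5 microglial markers 3, 2 and 1, with none of these higher. How often such sums are apart for other sets of genes was not counted. The part of these markers in the member results below was not tested. The summed level of 10 markers of cortical glutamatergic neurons ran from 147.8 to 606.4 CPM over the 143 libraries. Of these markers 1 was called higher and none lower in zQ175 in 2[4]6, 2 were higher and 1 lower in 6[4]10, and 2 were higher and 2 lower in 2+6[8]10. One library of 6[4]10, from the untreated zQ175 male of replicate 2, stood apart in how its gene levels depended on transcript length, at -6.6 SD where the next lowest library was at -3.18 SD. Results that change without it are given with both values. Libraries also differed in how gene levels depended on GC content. This GC slope ran from -0.14 to 2.12 SD in 6[4]10 and from -1.7 to 0.59 SD in 2+6[8]10. In 2[4]6 it reached from -1.99 to 2.32 SD. Among untreated mice there, wild type ran from -0.69 to 1.41 SD, and nearly all zQ175 mice were negative, the highest at 0.5 SD. Member transcripts had from 36.8% GC (Gria2) to 61.7% (Grik5). Fits with both slopes as covariates are among the alternatives below.

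The first comparison asked whether subunit RNA differed between untreated zQ175 and wild-type striatum. Grik2, which encodes the channel-forming kainate subunit GluK2, fell by 34.7% in 2[4]6, 46.4% in 6[4]10 and 42.6% in 2+6[8]10, and Gria3, which encodes GluA3, fell by 9.32%, 17.2% and 17.7%. Gria2 fell at 10 months in both strategies, and Grik5 fell and Grik4 rose at 6 months. Neither Gria1 nor Gria4 was called. In 2[4]6, 1 member was called higher and 3 lower at a Benjamini-Hochberg adjusted p under 0.05 in edgeR's quasi-likelihood test, where 32.6% of the 15716 genes tested were called, 15.3% higher and 17.2% lower. In 6[4]10, 0 were higher and 4 lower (36.1% of all genes called, 19.2% higher and 17% lower), and in 2+6[8]10, 0 were higher and 3 lower (35.4%, 17.1% higher and 18.3% lower). Read against these shares, the number of members called was near the background. The median log2 fold change over the 9 members was -0.03, -0.06 and -0.07, beside medians over all genes of 0.00, 0.01 and 0.00.

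Grik2 lies at chr10:49094833-49788766 on the minus strand of GRCm38. In 2[4]6 its lowest, median and highest levels were 109.9, 119.0 and 132.0 CPM in untreated wild type and 72.4, 79.4 and 83.5 CPM in untreated zQ175. At 10 months they were 114.7, 127.9 and 135.2 CPM against 51.8, 69.2 and 79.3 CPM in 6[4]10, and 121.6, 131.0 and 147.2 CPM against 69.4, 75.04 and 79.9 CPM in 2+6[8]10. Every zQ175 mouse lay below every wild-type mouse in all 3. The log2 fold changes were -0.62 ± 0.05 (SE; adjusted p = 4e-14), -0.90 ± 0.07 (adjusted p = 2.4e-14) and -0.80 ± 0.05 (adjusted p = 2.44e-20) by edgeR's quasi-likelihood test, 8 mice against 8. By size, 4.38%, 1.95% and 2.51% of all genes tested had a change as large or larger in either direction. The groups were also apart under NTC and under HTT-10150, so that zQ175 and wild type did not overlap in 9 of 9 comparisons, and the log2 fold changes were -0.60, -0.83 and -0.90 under NTC and -0.57, -0.82 and -0.88 under HTT-10150 in the order of strategies above. The share of all genes whose genotype groups are apart was not counted, so how unusual this is among all genes is not known. The lowest Grik2 level of all 143 libraries, 44.7 CPM, came from the male of replicate 2 among zQ175 mice given HTT-10150 in 6[4]10. That library also had the lowest summed medium spiny neuron markers, 3034 CPM, and the 4th highest cortical markers, 549.2 CPM; with it and the other libraries highest in cortical markers left out, the Grik2 call stood in each of the 9 comparisons.

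Among the kainate subunits Grik2 lost share. It held a median of 23.2% of the summed kainate TPM in untreated wild type and 18.9% in untreated zQ175 in 2[4]6, 24.9% and 16.1% in 6[4]10, and 26.7% and 17.4% in 2+6[8]10. The share of Grik5, its high-affinity partner, had medians of 60.2% and 61.7% in 2[4]6, 59.6% and 66.9% in 6[4]10, and 56.99% and 62.97% in 2+6[8]10. The ranges of the Grik5 share overlapped at 6 months and were apart in both strategies at 10 months in TPM, the lowest zQ175 share being 64.4% in 6[4]10 and 59.4% in 2+6[8]10 and the highest wild-type share 61.8% and 59.1%. The Grik5 level itself had medians of 152.05 TPM in wild type and 150.0 TPM in zQ175 in 6[4]10, and 137.7 and 139.1 TPM in 2+6[8]10. A higher share is thus not by itself a gain in Grik5 RNA. The summed kainate level itself had medians of 242.5 TPM in wild type and 214.8 TPM in zQ175 in 2[4]6, 254.9 and 222.4 TPM in 6[4]10, and 237.7 and 219.8 TPM in 2+6[8]10. With the length of all annotated exons joined, the Grik2 share was 11.5% and 9.11%, 12.4% and 7.68%, and 13.4% and 8.41%, lower in zQ175 as before. The share itself was smaller with this length in both genotypes. With that length the Grik5 share had medians of 66.5% and 65.6% in 2[4]6, the other way round, and its ranges overlapped at 10 months too, from 67.7% in zQ175 against up to 68.9% in wild type in 6[4]10 and from 63.5% against up to 65.1% in 2+6[8]10. Shares have no test of their own.

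**Figure D2:**
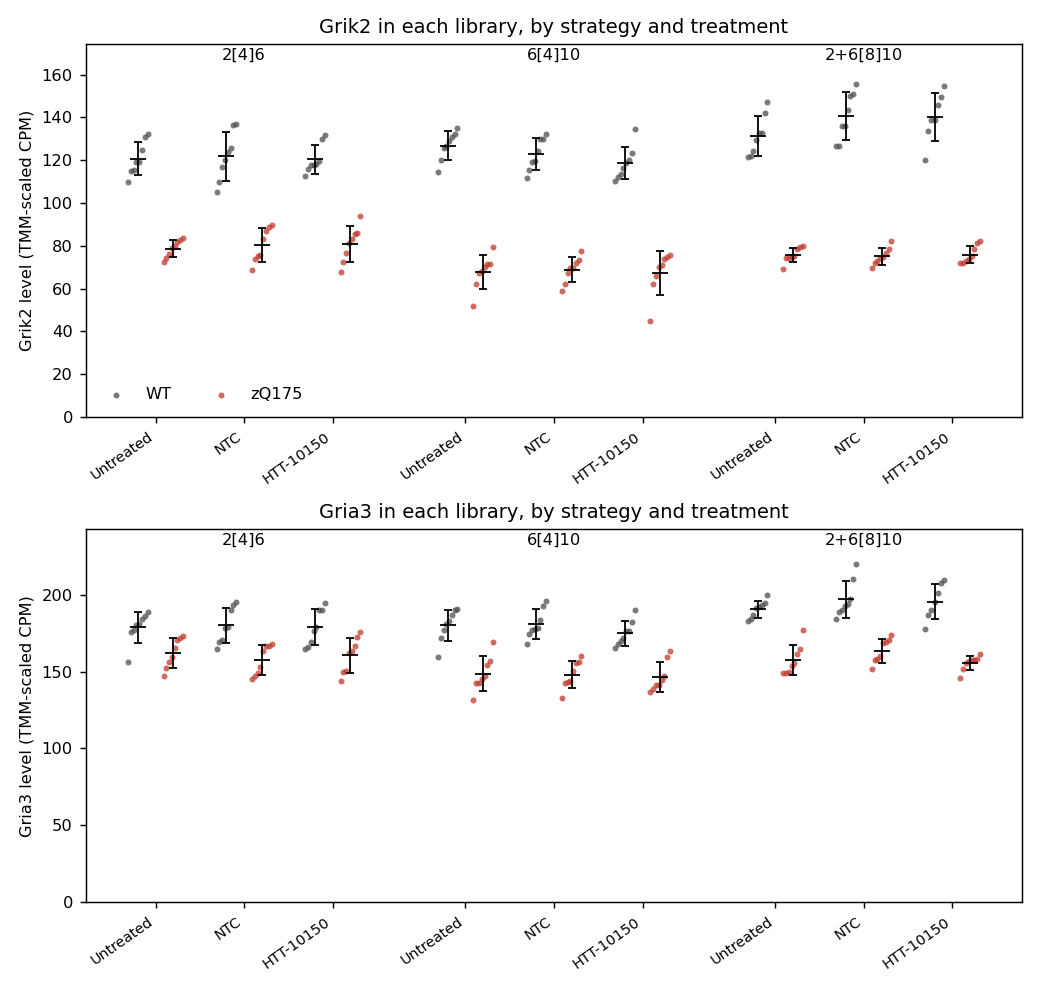
Levels of Grik2 and Gria3 in CPM for every mouse in the 18 groups, with wild type and zQ175 side by side for each treatment and strategy and black marks for the group mean and SD. For Grik2 the zQ175 mice lie below the wild-type mice in all 9 comparisons, and for Gria3 they do so in 5 of 9. The share of all genes whose genotype groups are apart was not counted.

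Of the 9 members, 6 have a promoter entry in RefSeq (GRCm38.p6), Gria2, Gria4, Grik2, Grik3, Grik4 and Grik5. The windows before the annotated starts of Grik2, the member that fell most, and Gria2, the most abundant member by TPM, are shown for their base composition, 5′ to 3′ on the gene's strand with CpG sites in capitals. The Gria2 window is chr3:80802836-80803085 and the Grik2 window is chr10:49788767-49789004, both on the minus strand.
Gria2: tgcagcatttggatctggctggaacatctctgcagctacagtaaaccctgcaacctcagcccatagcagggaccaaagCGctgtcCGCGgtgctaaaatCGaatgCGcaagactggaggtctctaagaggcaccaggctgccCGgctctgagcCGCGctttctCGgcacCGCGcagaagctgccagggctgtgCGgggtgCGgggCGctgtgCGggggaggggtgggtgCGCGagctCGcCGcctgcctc
Grik2: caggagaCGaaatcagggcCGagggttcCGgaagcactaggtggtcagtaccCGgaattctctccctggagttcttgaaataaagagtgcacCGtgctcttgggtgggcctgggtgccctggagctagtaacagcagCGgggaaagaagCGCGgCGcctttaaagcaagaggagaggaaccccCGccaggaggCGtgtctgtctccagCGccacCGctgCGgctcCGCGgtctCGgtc
Both were GC-rich, 64.8% with 19 CpG sites for Gria2 and 61.8% with 17 for Grik2, or 7.6 and 7.1 CpG sites per 100 bases where the median of 32851 RefSeq promoter windows was 52.4% GC and 2.4 per 100 bases. The GC box letters GGGCGG, searched on both strands, were in neither window and in 32.7% of all windows; among the members they were found 6 times in Grik3, 2 times in Grik5 and once in Grik4. Neither TATAAA (12.4% of all windows) nor the cAMP response element letters TGACGTCA (1.5%) were found in the 6 member windows. A missing match says only that these letters are not in the window.

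Gria3, on the X chromosome at chrX:41400854-41678601, changed less than Grik2 but in the same direction throughout. Its lowest, median and highest levels in untreated mice were 156.03, 180.7 and 188.4 CPM in wild type and 146.9, 162.5 and 172.8 CPM in zQ175 in 2[4]6. At 10 months they were 159.7, 181.9 and 190.5 CPM against 131.2, 146.1 and 169.3 CPM in 6[4]10, and 182.6, 191.6 and 199.5 CPM against 148.9, 154.7 and 177.2 CPM in 2+6[8]10. The untreated groups overlapped in 2[4]6 and 6[4]10 and were apart in 2+6[8]10, and in each strategy 8 of 8 zQ175 mice were below the wild-type median. The log2 fold changes were -0.14 ± 0.04 (adjusted p = 0.00444), -0.27 ± 0.04 (adjusted p = 1.98e-06) and -0.28 ± 0.04 (adjusted p = 1.05e-08). They were -0.19, -0.28 and -0.27 under NTC and -0.15, -0.25 and -0.33 under HTT-10150, each called. Gria3 held a median of 15.04%, 15.3% and 15.5% of the summed AMPA TPM in untreated wild type in the order of strategies above, and 13.9%, 13.3% and 13.4% in untreated zQ175.

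Gria2, at chr3:80681450-80802835, had lowest, median and highest levels of 576.9, 673.1 and 705.0 CPM in untreated wild type and 573.9, 668.3 and 715.1 CPM in untreated zQ175 in 2[4]6, which overlapped over nearly their whole range (log2 fold change -0.02, 95% interval -0.13 to 0.08). At 10 months it was lower in zQ175. In 6[4]10 the levels were 601.7, 681.4 and 715.6 CPM against 573.1, 618.4 and 682.4 CPM (log2 fold change -0.12 ± 0.04, adjusted p = 0.0177), and in 2+6[8]10 they were 656.6, 714.7 and 752.8 CPM against 583.7, 648.9 and 702.3 CPM (log2 fold change -0.14 ± 0.04, adjusted p = 0.00308). The groups overlapped in both, with 7 of 8 and 8 of 8 zQ175 mice below the wild-type median. Gria2 was also called lower at 10 months under NTC (-0.11 and -0.17) and under HTT-10150 (-0.12 and -0.16), and not at 6 months; in 6[4]10 the NTC call was lost without replicate 1 (-0.08) or 4 (-0.10) and the HTT-10150 call without replicate 1 (-0.09) or 2 (-0.11) or the libraries highest in cortical markers (-0.10). In 6[4]10 the untreated call was lost without the mice of replicate 2 (-0.10, adjusted p = 0.131) or of replicate 4 (-0.11, adjusted p = 0.0728). With slopes on transcript length and GC content as covariates Gria2 was called at 6 months too, at -0.13 (adjusted p = 0.00134) in untreated mice.

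Gria1 (chr11:57011387-57330244) and Gria4 (chr9:4417896-4796234), the subunit best known from interneurons and rapidly gated receptors, were called in none of the 9 genotype comparisons. Gria1 had medians of 479.0 CPM in untreated wild type and 458.1 CPM in untreated zQ175 in 2[4]6, 466.7 and 444.2 CPM in 6[4]10, and 464.0 and 461.0 CPM in 2+6[8]10, with overlapping ranges. The 95% intervals of its log2 fold change were -0.10 to 0.04, -0.14 to 0.02 and -0.08 to 0.06. Gria4 had medians of 77.8 and 78.5 CPM, 75.7 and 72.6 CPM, and 80.99 and 82.8 CPM, with intervals of -0.08 to 0.09, -0.14 to 0.05 and -0.07 to 0.11. Under NTC in 2[4]6, Gria1 missed the threshold (-0.09, adjusted p = 0.0581) and was called with the covariates for transcript length and GC content (-0.11), with the cortical marker level as a covariate (-0.08) and with the replicate block (-0.09). The summed AMPA level, to which Gria2 and Gria1 contribute most, had medians of 515.3 TPM in untreated wild type and 525.5 TPM in untreated zQ175 in 2[4]6, 519.2 and 497.4 TPM in 6[4]10, and 541.3 and 528.9 TPM in 2+6[8]10, with overlapping ranges.

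The other kainate subunits differed less than Grik2 in untreated mice. Grik5 (chr7:25009849-25072346) had lowest, median and highest levels of 233.01, 262.8 and 292.0 CPM in untreated wild type and 194.8, 222.0 and 257.7 CPM in untreated zQ175 in 2[4]6, and 6 of 8 zQ175 mice lay below every wild-type mouse (log2 fold change -0.25 ± 0.06, adjusted p = 0.000908). At 10 months the untreated differences were -0.05 (95% interval -0.15 to 0.05) and -0.07 (-0.19 to 0.05) and did not pass. Grik5 was also called lower under HTT-10150 in 2[4]6 (-0.16, adjusted p = 0.0341) and under NTC in 2+6[8]10 (-0.22, adjusted p = 0.00471). Both of these calls were lost without the mice of replicate 2 (-0.12 and -0.13, adjusted p = 0.205 and 0.13), and once length and GC slopes were covariates (-0.07 and -0.09). The first was also lost without replicate 4 (-0.11, adjusted p = 0.275), with no filter on low counts (-0.15), no sex term (-0.17) or only the groups compared (-0.15).

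Grik4 (chr9:42518135-42944493), the other high-affinity subunit, was the only member called higher in zQ175. In 2[4]6 its lowest, median and highest levels were 10.2, 12.2 and 15.1 CPM in untreated wild type and 11.4, 15.5 and 16.3 CPM in untreated zQ175, with 6 of 8 zQ175 mice above every wild-type mouse. The log2 fold change was 0.24 ± 0.08 (adjusted p = 0.0244), and it was 0.29 (adjusted p = 0.00547) under NTC and 0.25 (adjusted p = 0.0206) under HTT-10150 in the same strategy. In 2+6[8]10 it was called under HTT-10150 (0.34 ± 0.09, adjusted p = 0.0019) and not in untreated mice (0.17, adjusted p = 0.136), where 2 of 14 alternatives called it. It was 0.18, 0.19 and 0.17 in untreated, NTC and HTT-10150 mice of 6[4]10, none of them called (under NTC it was called without replicate 3, at 0.28). The untreated call in 2[4]6 was lost without replicate 2, 3 or 4 (0.24, 0.18 and 0.21, adjusted p = 0.081, 0.165 and 0.0932) and once length and GC slopes were covariates (0.21), the NTC call without replicate 3 (0.21) and the HTT-10150 calls without replicate 2 (0.22 in 2[4]6 and 0.25 in 2+6[8]10) or, in 2[4]6, replicate 3 (0.15). Averaged over the 3 treatments, a contrast chosen after the data were seen, Grik4 was called higher in each strategy, at 0.26 ± 0.05, 0.18 ± 0.05 and 0.24 ± 0.05, where 54.6%, 55.7% and 56.4% of all genes were called.

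Grik3 (chr4:125490700-125714173), which encodes a channel-forming subunit of low glutamate affinity, had lowest, median and highest levels of 115.7, 120.0 and 124.9 CPM in untreated wild type and 80.3, 108.9 and 122.8 CPM in untreated zQ175 in 6[4]10. There 7 of 8 zQ175 mice lay below every wild-type mouse and the gene was called lower (-0.16 ± 0.06, adjusted p = 0.0342). The lowest of these values came from the library that stood apart by its length slope, and without that library the difference was -0.10 (adjusted p = 0.123). The call was also lost without replicate 1 (-0.17, adjusted p = 0.059), replicate 2 (-0.09, adjusted p = 0.264), which holds that library, or replicate 4 (-0.18, adjusted p = 0.0633), with length and GC slopes as covariates (-0.07), with no filter on low counts (-0.16) and with only the groups compared (-0.16). In the other strategies Grik3 was at -0.06 (95% interval -0.13 to 0.02) and -0.10 (-0.19 to -0.02, adjusted p = 0.0501), neither called; 5 of 14 alternatives called the latter. Grik1 (chr16:87895900-88290265) had medians between 2.22 and 2.84 CPM over the 18 groups and was called in none of the 9 comparisons; its untreated intervals, -0.10 to 0.44, -0.34 to 0.22 and -0.35 to 0.36, are the widest among the members. Under NTC in 2+6[8]10 Grik1 was 0.35 (adjusted p = 0.126), and 0.59 (adjusted p = 0.0265) without the mice of replicate 1.

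**Figure D3:**
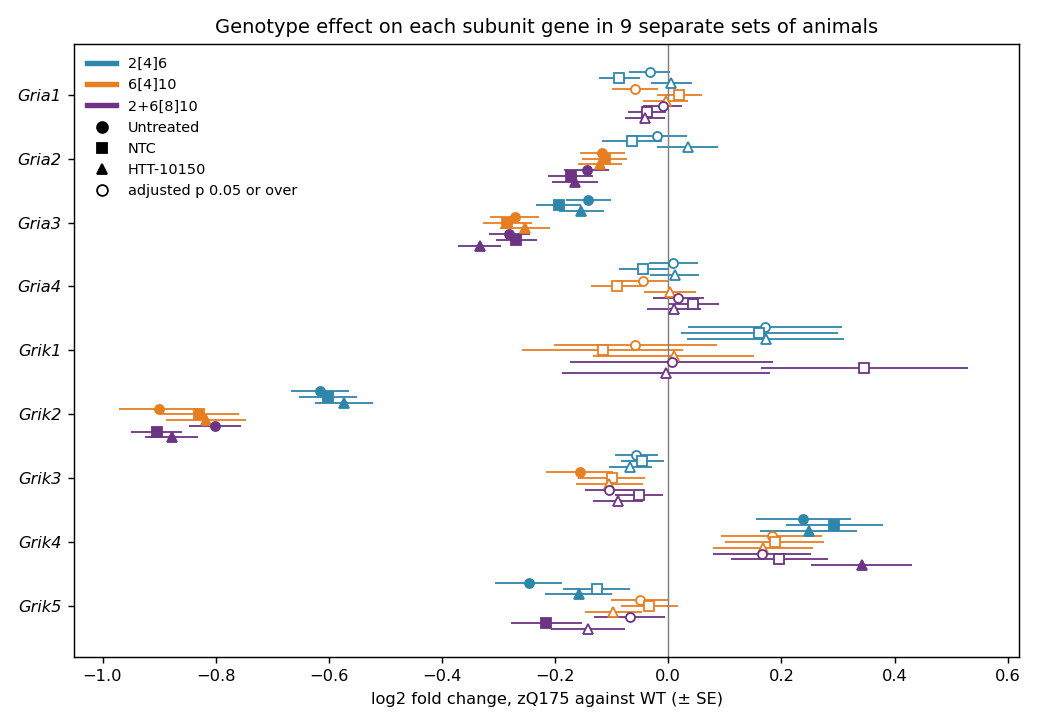
Log2 fold changes of zQ175 against wild type for the 9 subunits, with bars of 1 standard error, under each treatment and in each strategy, with filled symbols for an adjusted p under 0.05. Grik2 lies between -0.57 and -0.90 in all 9 comparisons, Gria3 between -0.14 and -0.33, and Grik4 is on the higher side.

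The same genotype comparison was made in separate mice under NTC and under HTT-10150. Under NTC 1 member was called higher and 2 lower in 2[4]6, where 34.4% of all genes were called, 15.9% higher and 18.5% lower. In 6[4]10 they were 0 higher and 3 lower (32.8% of all genes, 16.8% higher and 15.9% lower), and in 2+6[8]10 0 higher and 4 lower (42.1%, 20.7% higher and 21.4% lower). Under HTT-10150 the counts were 1 higher and 3 lower in 2[4]6 (33.5% of all genes, 16.1% higher and 17.4% lower), 0 higher and 3 lower in 6[4]10 (34.7%, 17.8% higher and 16.9% lower), and 1 higher and 3 lower in 2+6[8]10 (36.2%, 17.5% higher and 18.7% lower). Grik2 and Gria3 were among the lower members in all 9 comparisons and under each of the 13 or 14 alternative settings of each. Library number as a block was not among those settings, so its part in these differences was not tested. Gria2 was among them in the 6 comparisons at 10 months and in none at 6 months.

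A further comparison asked whether the genotype difference changed between strategies, where age, strategy and collection cannot be told apart. Among treated mice the strategies also differ in the time and number of doses. In untreated mice no member passed the test of the difference between strategies, where 0.835% (6[4]10 minus 2[4]6), 0.0675% (2+6[8]10 minus 2[4]6) and 0.0123% (2+6[8]10 minus 6[4]10) of all genes were called; at an unadjusted p under 0.05 the counts of members were 3, 3 and 0. The nearest was Grik2 in 6[4]10 against 2[4]6, with -0.29 ± 0.08 (95% interval -0.45 to -0.13, adjusted p = 0.0554), which DESeq2 called (-0.30, adjusted p = 0.0228). A contrast over the mean of the 3 treatments, chosen after this result was seen, called 3 members more negative in 6[4]10 than in 2[4]6 (16.5% of all genes called, 7.51% in this direction) and the same 3 in 2+6[8]10 than in 2[4]6 (11.2%, 5.89% in this direction). Grik2 differed by -0.26 ± 0.05 in both (adjusted p = 3.42e-05 and 3.53e-05), Gria3 by -0.11 ± 0.03 and -0.13 ± 0.03 (adjusted p = 0.0111 and 0.00461), and Gria2 by -0.10 ± 0.04 and -0.14 ± 0.04 (adjusted p = 0.038 and 0.00609). Between both strategies at 10 months 0 members were called (0.00614% of all genes; 0 in DESeq2, and 1 member, Gria4, had an unadjusted p under 0.05). Without the library of the lowest length slope Gria2 in 6[4]10 was at -0.10 (adjusted p = 0.0524), and once slopes on length and GC content entered the fit, only Grik2 was called in 6[4]10 and Gria2 was not called in 2+6[8]10 (-0.07).

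Levels were also compared between ages within a genotype, where age, strategy and collection cannot be told apart. In untreated wild type 0 members were called between 10 and 6 months (16.6% of all genes called in 6[4]10 and 15% in 2+6[8]10) or between the cohorts at 10 months (13.1%). DESeq2 called 0 members too, and at an unadjusted p under 0.05 in edgeR the counts were 0, 3 and 2. The nearest was Grik5 at -0.15 (adjusted p = 0.0574) in 2+6[8]10 against 2[4]6. In untreated zQ175, Gria3 (-0.12), Grik2 (-0.22) and Grik3 (-0.19) were lower and Grik5 (0.19) was higher in 6[4]10 than in 2[4]6 (16.5% of all genes called), while no member was called in 2+6[8]10 against 2[4]6 (2.49%; 0 members in DESeq2 and 0 at an unadjusted p under 0.05). Between the untreated zQ175 cohorts of the same age, Gria4 (0.16), Grik2 (0.16) and Grik3 (0.15) were higher and Grik5 (-0.16) lower in 2+6[8]10 than in 6[4]10 (22.3% of all genes called). Those 4 calls were all lost without the library of the lowest length slope (Gria4 0.13, Grik2 0.11, Grik3 0.09, Grik5 -0.14), and of the 4 against 2[4]6 those of Gria3 (-0.10) and Grik5 (0.17) were lost. With length and GC slopes as covariates Grik2 and Grik5 turned in sign between the cohorts, to -0.00 and 0.02.

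HTT-10150 was compared with NTC within each genotype to ask whether it moved the subunits. Htt itself had lowest, median and highest levels of 131.3, 138.1 and 143.95 CPM in zQ175 given NTC and 86.1, 108.4 and 119.6 CPM in zQ175 given HTT-10150 in 2+6[8]10, without overlap (-0.36 ± 0.06, adjusted p = 0.000346), and it was called lower in wild type there too (-0.49 ± 0.06, adjusted p = 5.01e-06). In zQ175 it was at -0.32 (adjusted p = 0.602) in 6[4]10 and at -0.01 (adjusted p = 0.993) in 2[4]6, and in wild type at -0.34 (adjusted p = 0.82) and -0.26 (adjusted p = 0.0567), none of them called. The wild-type groups of 2[4]6 were still apart, at 147.37 to 160.33 CPM under NTC and 103.4 to 146.36 CPM under HTT-10150. The other uncalled groups overlapped. In 6[4]10 wild type had 143.61 to 171.56 against 77.61 to 147.79 CPM. There zQ175 had 110.43 to 145.89 against 85.99 to 119.06 CPM. In 2[4]6 zQ175 had 112.13 to 148.14 against 111.85 to 138.74 CPM. A missing call does not by itself show that Htt was unchanged. The zQ175 call in 2+6[8]10 was lost with length and GC slopes as covariates (Htt -0.26, adjusted p = 0.104), the wild-type call there with the library number as a block (-0.50, adjusted p = 0.0582), and wild-type Htt in 2[4]6 was called by DESeq2 (-0.25, adjusted p = 0.0151). The counts do not separate the alleles of Htt. No member was called in zQ175 in 2[4]6, 6[4]10 or 2+6[8]10, where 0%, 0% and 3.16% of all genes were called, or in wild type (0.00636%, 0% and 0.0129%). DESeq2 called 0 members as well, and of the 27 member tests of edgeR in each genotype only that of Grik1 in wild type in 2+6[8]10 had an unadjusted p under 0.05.

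Grik2 in zQ175 had medians of 79.4 CPM with NTC and 82.2 CPM with HTT-10150 in 2[4]6, 69.7 and 70.4 CPM in 6[4]10, and 74.4 and 74.5 CPM in 2+6[8]10, and in each strategy the ranges overlapped. The 95% intervals of its log2 fold change were -0.09 to 0.11, -0.17 to 0.11 and -0.08 to 0.10, so each bound was smaller in size than the genotype difference of the same strategy. Gria3 in zQ175 in 2+6[8]10, with 151.3, 164.4 and 173.7 CPM under NTC and 145.96, 157.0 and 161.5 CPM under HTT-10150, was at -0.07 (95% interval -0.14 to -0.00, unadjusted p = 0.0516, adjusted p = 0.298 in edgeR's test). Gria1 and Gria2 were within -0.04 and 0.03 in zQ175 in all 3 strategies. Grik4 in zQ175 in 2+6[8]10 was at 0.13 (-0.03 to 0.30, adjusted p = 0.448), and Grik1 in wild type there at 0.45 (0.08 to 0.83, adjusted p = 0.868), with NTC levels of 0.910, 2.22 and 3.01 CPM against 1.65, 2.74 and 3.47 CPM. No member was called in the test of whether the effect of HTT-10150 differed between the genotypes (0%, 0% and 0.529% of all genes called; 0 members in DESeq2 and 0 at an unadjusted p under 0.05 in edgeR). For Grik2 that difference was 0.03 (-0.11 to 0.17), 0.01 (-0.18 to 0.21) and 0.03 (-0.10 to 0.15).

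**Figure D4:**
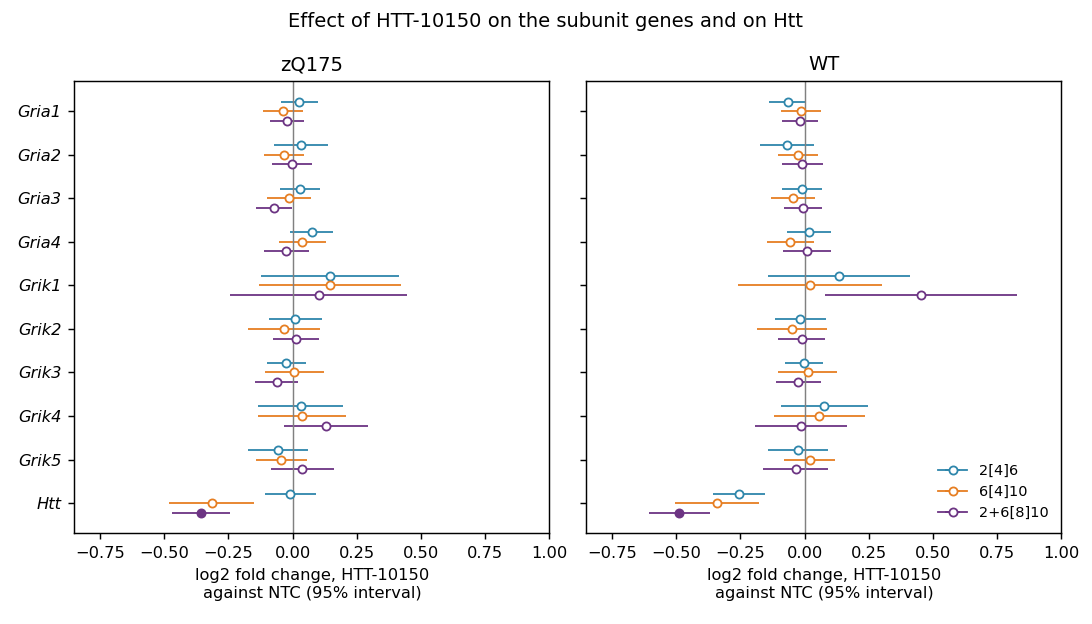
Log2 fold changes of HTT-10150 against NTC for the 9 subunits and Htt in each genotype and strategy, with 95% intervals and filled points for an adjusted p under 0.05. Htt lies at -0.36 in zQ175 and -0.49 in wild type in 2+6[8]10, and Grik2 lies within -0.05 and 0.01 in all 6 comparisons.

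NTC was compared with no treatment to see whether an siRNA without a target moved the subunits; these comparisons share the NTC mice with those of HTT-10150. No member was called in zQ175 (0% of all genes in each strategy) or in wild type (0%, 0% and 0.181%). DESeq2 also called 0 members, and at an unadjusted p under 0.05 in edgeR stood 0 of 27 member tests in zQ175 and 1 of 27 in wild type, that of Grik2 in 2+6[8]10 (0.09, adjusted p = 0.407). Grik1 in wild type in 2+6[8]10 was at -0.37 (95% interval -0.74 to -0.00, adjusted p = 0.446) and Grik5 in zQ175 in 2[4]6 at 0.12 (adjusted p = 0.963). The genotype difference in untreated mice was also compared between females and males, with 4 mice per sex and group. No member was called in any strategy (0% of all genes), by edgeR or by DESeq2. At an unadjusted p under 0.05 in edgeR's test were 3 of 27, Grik1 in 2[4]6 (0.55) and Gria1 (0.19) and Grik4 (-0.34) in 6[4]10, as females minus males. Grik2 was at -0.07 (95% interval -0.27 to 0.14), 0.24 (-0.02 to 0.50) and 0.12 (-0.05 to 0.28).

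The auxiliary subunits that travel with these receptors were counted from lists of related genes. Of 21 AMPA auxiliary and assembly genes, 4 were called higher and 10 lower in untreated zQ175 in 2[4]6, 6 and 9 in 6[4]10, and 5 and 9 in 2+6[8]10, with median log2 fold changes of -0.17, 0.04 and -0.08. Over all genes tested, 32.6%, 36.1% and 35.4% were called in these comparisons, 15.3%, 19.2% and 17.1% higher and 17.2%, 17% and 18.3% lower, and the medians were 0.00, 0.01 and 0.00. Gsg1l, an auxiliary subunit that slows recovery from desensitization, had log2 fold changes of -0.96, -0.90 and -0.87, and Cacng4, a transmembrane AMPA receptor regulatory protein, of -0.52, -0.43 and -0.52. Olfm3, an olfactomedin found in AMPA receptor complexes, rose by 0.47, 0.67 and 0.59. Cnih3, a cornichon that promotes export and slows deactivation, rose by 0.68 and 0.66 at 10 months and was at 0.36 (adjusted p = 0.0569) at 6 months. The Cnih3 call stood in 10 of 14 alternatives in 6[4]10, being lost without replicate 2 (0.64) or 4 (0.42), with length and GC slopes as covariates (0.55) and without the libraries highest in cortical markers (0.40, adjusted p = 0.0551), and in 13 of 14 in 2+6[8]10, where it was lost without replicate 4 (0.58). At 6 months Cnih3 was called in 4 of 13 alternatives: without replicate 1 (0.47), with only the groups compared (0.36), with the cortical marker level as a covariate (0.46) and without the libraries highest in cortical markers (0.50). Of 4 kainate auxiliary genes 2 were called lower and 0 higher in each strategy, beside the shares of all genes given above. They were Neto2, at -0.98 ± 0.09, -1.03 ± 0.07 and -1.11 ± 0.05, and Neto1, at -0.26 ± 0.04, -0.33 ± 0.05 and -0.24 ± 0.04, which encode the CUB-domain partners of kainate receptors.

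**Figure D5:**
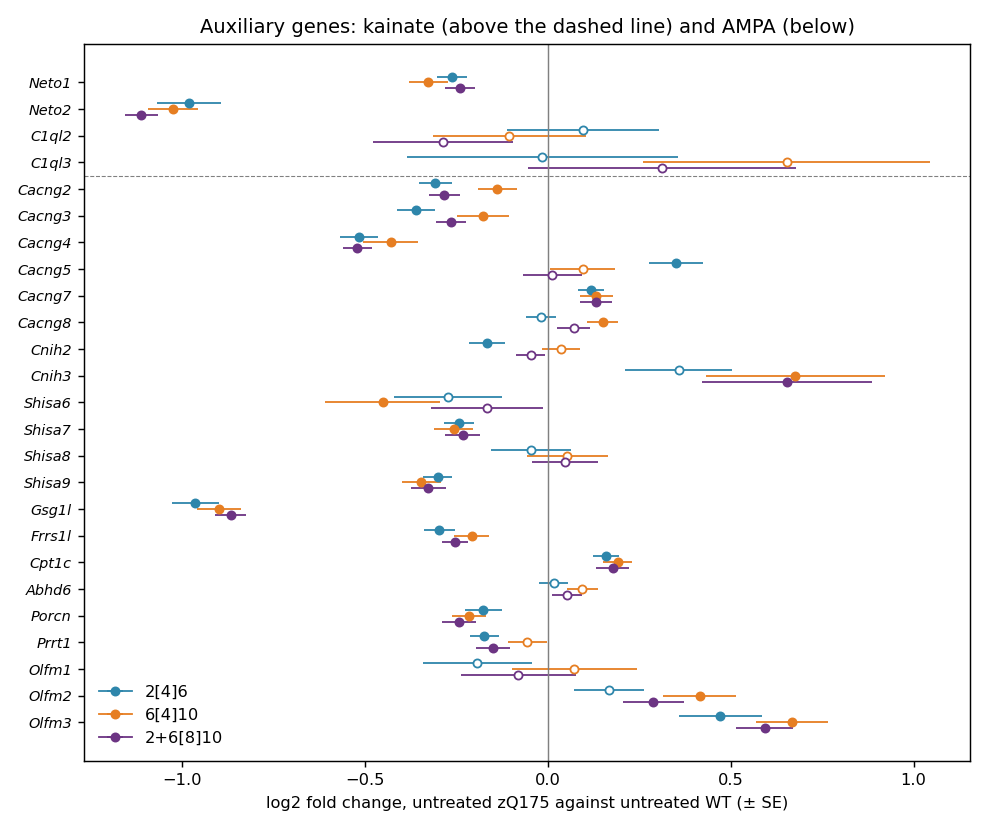
Log2 fold changes of untreated zQ175 against wild type for the genes of the kainate (above the dashed line) and AMPA auxiliary lists in the 3 strategies, with bars of 1 standard error and filled points for an adjusted p under 0.05. Neto2 and Gsg1l lie lowest, at -0.98 and -0.96 in 2[4]6, and Olfm3 and Cnih3 are on the higher side.

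Of 18 scaffold and trafficking genes, 2 were called higher and 9 lower in 2[4]6, 4 and 5 in 6[4]10, and 4 and 6 in 2+6[8]10, where 32.6%, 36.1% and 35.4% of all genes were called; their median log2 fold changes were -0.12, -0.06 and -0.14. Lrrtm1, a postsynaptic adhesion protein, was at -0.51, -0.46 and -0.52, Dlg4, which encodes the scaffold PSD-95, at -0.42, -0.28 and -0.30, and Akap5, the anchor of protein kinase A and calcineurin at AMPA receptors, at -0.14, -0.25 and -0.24, while Grip1, a scaffold that binds GluA2 and GluA3, rose by 0.22, 0.26 and 0.20. The Akap5 call was lost in 2[4]6 without replicate 2, 3 or 4 (-0.14, -0.13 and -0.09) or with no filter on low counts (-0.13), and in 6[4]10 without replicate 4 (-0.21) or the library of the lowest length slope (-0.20) or with length and GC slopes as covariates (-0.21), and that of Grip1 in 6[4]10 without replicate 1 (0.19) and in 2+6[8]10 without replicate 2 (0.15). Of 13 kinase, phosphatase and editing genes, 2, 1 and 1 were higher and 8, 8 and 7 lower against the same shares of all genes, with medians of -0.19, -0.18 and -0.15. The 4 with the largest mean change were Prkcb, a protein kinase C (-0.64, -0.59 and -0.57), Ppp3ca, the catalytic subunit of calcineurin (-0.56, -0.54 and -0.62), Ppp1ca, of protein phosphatase 1 (-0.55, -0.40 and -0.46), and Camk2b (-0.41, -0.36 and -0.33). Grid1, which encodes a delta receptor subunit, was lower throughout (-0.29, -0.26 and -0.24). HTT-10150 against NTC in zQ175 called no gene of these lists in 2[4]6 or 6[4]10, where 0% of all genes were called. In 2+6[8]10 it called Neto1 (-0.16, adjusted p = 0.0276), Prkcb (-0.19, adjusted p = 0.00295) and, named after its value was seen, the scaffold Dlg2 (-0.16, adjusted p = 0.0496), all lower. There 3.16% of all genes were called, 2.06% lower, so a few calls among lists of this length are near the background. Of 15 alternatives the call stood in 8 for Neto1, 13 for Prkcb and 5 for Dlg2. All 3 calls were lost without replicate 1 (Neto1 -0.15, Prkcb -0.17, Dlg2 -0.14) and when length and GC slopes were fitted (-0.06, -0.09 and -0.01). Those of Neto1 and Dlg2 were also lost without replicate 2 (-0.16 and -0.20) or 3 (-0.12 and -0.13), without the libraries highest in cortical markers (-0.14 and -0.14) and with the library number as a block (-0.15 and -0.16). That of Neto1 was lost with only the groups compared (-0.16), and that of Dlg2 without replicate 4 (-0.17), with no filter on low counts, no sex term or the cortical covariate (each -0.16).

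Likeness of pattern was described by Pearson's r of mean log2 CPM over the 18 groups, among 10543 genes; the group means share libraries, depth and the genotype difference, so no test is given. Grik2 was most like Ypel2 (r = 0.996) and Fnbp1l (r = 0.993), and Gria3 most like Erbin (r = 0.985) and S100pbp (r = 0.981). Gria2 was most like Pcmtd2 (0.956) and Adam22 (0.946), Grik4 like Ly6h (0.955) and Rnaseh2c (0.953), Grik5 like Ubald1 (0.964) and Spns1 (0.963), and Grik3 like Srr and Tmem64 (both 0.94). Lower values were found for Gria4 with Ttbk2 (0.91) and Rabgap1l (0.908), Gria1 with Epha7 (0.892) and Filip1 (0.888), and Grik1 with Synj2 (0.789) and Snx29 (0.748). Among the members themselves Gria3 and Grik2 were most alike (r = 0.971), followed by Gria2 and Gria3 (0.904), and Grik2 and Grik4 were the most opposed (-0.898).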

How the data were processed

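Striatal RNA of 143 mice in 18 groups was measured by polyA RNA-seq. The authors deposited expected counts per gene, not normalized; RSEM and GRCm38 are named in the submitters' processing notes. The authors also deposited a table named as FPKM whose columns each sum to 1000000, and it was used as TPM. Which RSEM version, aligner and annotation served is not given in the sources used here. Of 41135 entries, 7 that name no mouse gene (5.91e-06% of counts) were left out. Symbols and positions came from GENCODE M21 (GRCm38) for 40254 genes. Groups and sexes were read from the sample labels, which give 1 library per mouse and no further detail on independence, so p-values measure the spread between these libraries.

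Expected counts were rounded and fitted per strategy over its 6 groups with a sex term (edgeR 4.0.16, filterByExpr, TMM, robust quasi-likelihood F test, R 4.3.3), with Benjamini-Hochberg adjustment over all 15716, 15757 and 15506 genes tested in 2[4]6, 6[4]10 and 2+6[8]10; "called" means an adjusted p under 0.05. Strategies were compared in 1 fit of all libraries (16295 genes). Intervals are 95% normal intervals from the standard error, so one may leave out 0 where the F test has p just above 0.05. CPM values use TMM library sizes and TPM values do not, so genotype differences in a level or sum can differ between them. The scripts were tested on simulated data. Alternatives were DESeq2 1.42.0, size factors by RLE, all genes kept whatever their counts, fits of the compared groups only, no sex term, a replicate block, length and GC slopes or cortical marker level as covariates, each replicate number left out, and exon union length. Library number as a block was a further alternative, fitted only within a genotype for HTT-10150 against NTC and NTC against untreated. It was not fitted for zQ175 against wild type. Contrasts over the mean of the 3 treatments, and fits without the 15 libraries highest in cortical markers or without the library of the lowest length slope, were chosen after seeing the data. Among related genes those named were called in at least 2 of 3 strategies in untreated mice, up to 4 per list by mean absolute log2 fold change. A gene that this rule names is not reported here. The members and lists were chosen with earlier results of these data known.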

Additional observations from a re-analysis of the deposited data

Results flagged for a closer look

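The 9 members were examined in each of the 18 groups of 8 or 7 mice, and in 12 cases the highest or lowest level stood apart from the others by Dixon's criterion, which chance alone meets in about 1 in 20 groups. Gria1 had 4 of them. A wild-type untreated male of 2[4]6 (replicate 1) had 436.1 CPM where the others had 466.3 to 493.4, an untreated zQ175 male of 6[4]10 (replicate 2) had 374.7 against 435.9 to 464.8, an untreated zQ175 male of 2+6[8]10 (replicate 4) had 522.6 against 420.9 to 469.0, and a zQ175 female given HTT-10150 in 2+6[8]10 (replicate 3) had 396.4 against 439.8 to 477.9. A wild-type untreated male of 2[4]6 (replicate 4) was low in both Gria2, at 576.9 CPM against 664.2 to 705.0, and Gria3, at 156.03 against 175.93 to 188.4. Grik2 was at 44.66 CPM in a zQ175 male given HTT-10150 in 6[4]10 (replicate 2), where the others had 62.11 to 75.79. Grik3 was at 139.9 CPM in a wild-type untreated female of 2[4]6 (replicate 1), above 121.9 to 129.8. Grik4 was at 17.08 CPM in a wild-type male given NTC in 2[4]6 (replicate 4; others 10.0 to 12.64), at 17.73 in a wild-type male given HTT-10150 in 2[4]6 (replicate 1; others 10.44 to 13.71) and at 12.09 in a zQ175 female given HTT-10150 in 2+6[8]10 (replicate 4; others 15.04 to 16.59). Grik5 was at 283.9 CPM in the untreated zQ175 male of replicate 2 in 6[4]10, above 238.4 to 259.4; this is the library of the lowest length slope and the same mouse that was low in Gria1.

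The genotype difference, averaged over the 3 treatments, differed between strategies for 3 members by the test of that difference. This contrast was chosen after the same test in untreated mice had called no member. Between 6[4]10 and 2[4]6 it moved by -0.26 for Grik2, -0.11 for Gria3 and -0.10 for Gria2 on the log2 scale. There 16.5% of all genes were called, 7.51% in this direction. With length and GC slopes as covariates only Grik2 was still called there. Between 2+6[8]10 and 2[4]6 it moved by -0.26 for Grik2, -0.13 for Gria3 and -0.14 for Gria2, where 11.2% of all genes were called, 5.89% in this direction. With the same covariates Gria2 was not called there.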

How the results depend on the processing

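Of the 475 counts of members called under an alternative, 457 were within 1.5 times the reported count. Of 4275 alternative values of single members, 4189 kept their side of the threshold and, where called, their direction (the sign of uncalled values was not counted), 52 lost the call, 32 gained it and 2 turned in sign while called in at least one of the fits; the cause of these changes was not tested. Both totals include comparisons with no member called in the reported fit, such as HTT-10150 against NTC. In those, agreement means only that uncalled members stayed uncalled. With length and GC slopes as covariates, the members called in untreated zQ175 were 1 instead of 4 in 6[4]10 against 2[4]6 and 0 instead of 4 between the cohorts at 10 months, where Grik2 turned to -0.00 (-0.0036) and Grik5 to 0.0182. The same setting gave 1 instead of 3 for the mean-of-treatments difference of 6[4]10 from 2[4]6, 6 instead of 3 under NTC in 2[4]6, 5 instead of 3 in untreated 2+6[8]10 mice and 7 instead of 4 for the mean of treatments in 2[4]6. Without the library of the lowest length slope the zQ175 counts were 2 and 0 instead of 4 and 4, and with no filter on low counts the cohort count was 2. DESeq2, and leaving out the libraries highest in cortical markers, each called 1 member (Grik2) instead of 0 in untreated 6[4]10 minus 2[4]6. Leaving out those libraries called 1 (Grik5) instead of 0 between wild-type ages (2+6[8]10 against 2[4]6) and wild-type cohorts, as the cortical covariate did for the ages.

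The replicate block called 5 members instead of 3 under NTC in 2[4]6 and kept the other counts within 1.5 times. Deviations of mice with the same replicate number within sex had median correlations of 0.11, 0.01 and 0.02 in the 3 strategies, beside -0.044, -0.031 and -0.034 for other pairs. The lowest values were -0.432, -0.515 and -0.493. A weak likeness of mice with the same replicate number in 2[4]6 is therefore not excluded. For mice with the same library number the medians were 0.165, 0.166 and 0.103, with lowest values of -0.231, -0.515 and -0.493, beside -0.033, -0.029 and -0.027 for other pairs. The p-values of the genotype comparisons treat these mice as independent, and no genotype comparison was fitted with library number as a block. Nearly every library number held mice of a single genotype, so likeness within a number may make these p-values too small. Leaving out each replicate number gave 3 to 4, 2 to 4 and 3 to 3 members called in untreated mice of 2[4]6, 6[4]10 and 2+6[8]10, 2 to 3, 2 to 4 and 3 to 5 under NTC, and 2 to 4, 2 to 3 and 4 to 4 under HTT-10150; all counts for HTT-10150 against NTC, NTC against untreated and the interaction were 0. With the exon union length the wild-type medians were 237.7 for Gria1, 133.3 for Gria2, 57.47 for Gria3, 1.157 for Grik1, 29.38 for Grik2 and 42.03 for Grik3. Depth limited Grik1 most, at 18 counts in its lowest library.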
